A study of Homo sapiens with 6 samples.

Results

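The transcripts described here are antisense long noncoding RNAs, chosen by name: every row of the deposited expression table whose gene symbol ends in -AS and a number, with LOXL1-AS1 left out. The rule gave 639 rows of 19361. No measured value entered it, but the members were chosen with earlier results of these data known. The study worked with UMUC-14 cells, a human bladder cancer line in long use, and profiled them on Affymetrix U133 Plus 2.0 microarrays. There were 3 arrays of cells given the transfection reagent Lipofectamine RNAiMAX alone, called lipofectamine below. The other 3 arrays held cells transfected with an siRNA against the receptor tyrosine kinase FGFR3, each with a different siRNA (siFGFR3#35, siFGFR3#36 and siFGFR3#3). RNA was taken 40 h after transfection in both groups, with 100 ng labelled for each array. No array held a non-targeting siRNA, so the entry of an siRNA and the loss of FGFR3 cannot be told apart. Each siRNA was used on 1 array only, all the cells belonged to 1 line, and the labels do not say whether the arrays of a group came from separate cultures.

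An antisense transcript is read from the DNA strand opposite to another gene, the sense gene, whose symbol stands before the -AS. Some start beside the promoter of the sense gene and run away from it or across its first exon, and others start within or beyond the sense gene and run back over it. A few of them are known to guide chromatin regulators, to mask splice sites or to hold microRNAs, while for most no function is established. Many are made in small amounts and are cleared in the nucleus by the RNA exosome, a ring of subunits that degrades RNA from its end.

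The values are log2 expression levels on a scale where a difference of 1 is a 2-fold change. Each row has its own probes, so a difference in level between rows need not be a difference in the amount of RNA. This limit holds for the background measure and for the ranking by level below. The 3 lipofectamine arrays correlated at r = 0.9981 to 0.9985 over all rows, those with siFGFR3 at 0.992 to 0.995, and pairs across the groups at 0.9807 to 0.9885. FGFR3 itself was at 8.70, 8.75 and 8.74 on the lipofectamine arrays, and at 7.47, 7.14 and 8.45 with siFGFR3#35, #36 and #3. It was 1.04 lower (SE 0.29, adjusted p = 0.0299, limma), with no overlap between the groups and the smallest difference with siFGFR3#3. The adjusted p was 0.0796, 0.0847 or 0.0922 without lipofectamine replicate 1, 2 or 3, and 0.0759 without siFGFR3#35. Of 11 urothelial and epithelial marker genes with a row, 9 lay above background in lipofectamine cells and 10 in siFGFR3 cells. None of 5 leukocyte, 4 endothelial or 4 neuronal markers did so in either group, and 1 of 5 fibroblast and muscle markers (DES) did. Each array holds RNA of a whole culture, so fewer cells carrying a transcript and less of it per cell cannot be told apart.

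RefSeq lists a promoter window, from 250 bases before to 50 bases after a transcription start, for 484 of the 639 antisense genes (GRCh38.p14). The windows below belong to transcripts that the results turn on. GPC1-AS1 showed the largest rise, and its window (chr2:240456651-240456950, minus strand) is printed with the first transcribed bases in capitals.
GPC1-AS1: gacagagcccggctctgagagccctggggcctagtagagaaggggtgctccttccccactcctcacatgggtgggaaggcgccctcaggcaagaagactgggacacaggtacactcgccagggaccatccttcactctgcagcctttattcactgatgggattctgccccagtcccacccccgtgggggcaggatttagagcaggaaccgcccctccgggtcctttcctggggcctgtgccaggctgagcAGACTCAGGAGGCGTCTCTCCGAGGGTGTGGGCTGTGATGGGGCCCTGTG

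Motifs were searched in these windows on both strands, and a match says only that the letters are there. The interferon-stimulated response element (ISRE) was searched as GAAANNGAAA. The site of ETS transcription factors, which act below FGFR3 and its kinases, was searched as CCGGAAG. The site of AP-1, also a target of growth factor signalling, was searched as TGANTCA. The E-box of MYC and related factors was searched as CACGTG. The GC box of SP1 was searched as GGGCGG, and the CCAAT box by its 5 letters. None of these contains another. The ISRE letters stood in 3.65% of 27305 promoters, 1 per gene, and in 18 of the 484 antisense promoters (3.72%). Over all rows 14.2% were called higher in siFGFR3 cells and 19.8% lower, and over all antisense transcripts 4.54% and 11.7%. Of the 18 transcripts with the ISRE letters, 5 were called higher, 2 lower and 11 not at all. The 5 were PSMB8-AS1 (chr6:32843836-32844135, plus strand), TFAP2A-AS1 (chr6:10412068-10412367, plus strand), HOXA-AS2 (chr7:27121669-27121968, plus strand), FAM13A-AS1 (chr4:88709539-88709838, plus strand) and ANXA2R-AS1 (chr5:43041884-43042183, plus strand). The match is in capitals. The FAM13A-AS1 match lies on the opposite strand and so reads as its reverse complement.
PSMB8-AS1: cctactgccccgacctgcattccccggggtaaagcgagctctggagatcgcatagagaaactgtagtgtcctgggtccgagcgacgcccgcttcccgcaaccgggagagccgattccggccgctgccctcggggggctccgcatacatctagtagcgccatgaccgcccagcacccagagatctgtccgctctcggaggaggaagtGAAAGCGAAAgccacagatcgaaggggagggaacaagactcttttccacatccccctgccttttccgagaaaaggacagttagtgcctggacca
TFAP2A-AS1: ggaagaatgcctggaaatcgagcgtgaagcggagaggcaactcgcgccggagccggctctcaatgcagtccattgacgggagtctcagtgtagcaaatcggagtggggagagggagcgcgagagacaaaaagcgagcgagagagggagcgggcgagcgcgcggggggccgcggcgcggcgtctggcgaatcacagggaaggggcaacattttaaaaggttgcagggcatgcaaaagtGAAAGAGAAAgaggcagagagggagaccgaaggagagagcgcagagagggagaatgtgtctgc
HOXA-AS2: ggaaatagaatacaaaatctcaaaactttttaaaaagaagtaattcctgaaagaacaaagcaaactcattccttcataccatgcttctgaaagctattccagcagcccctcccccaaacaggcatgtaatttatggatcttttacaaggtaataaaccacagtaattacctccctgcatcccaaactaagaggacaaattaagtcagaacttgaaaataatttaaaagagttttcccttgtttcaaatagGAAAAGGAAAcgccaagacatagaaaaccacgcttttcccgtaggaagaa
FAM13A-AS1: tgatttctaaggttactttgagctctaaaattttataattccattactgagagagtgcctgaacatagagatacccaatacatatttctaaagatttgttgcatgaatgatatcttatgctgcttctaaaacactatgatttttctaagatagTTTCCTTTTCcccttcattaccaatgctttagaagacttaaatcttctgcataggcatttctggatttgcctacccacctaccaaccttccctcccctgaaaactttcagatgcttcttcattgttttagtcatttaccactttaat
ANXA2R-AS1: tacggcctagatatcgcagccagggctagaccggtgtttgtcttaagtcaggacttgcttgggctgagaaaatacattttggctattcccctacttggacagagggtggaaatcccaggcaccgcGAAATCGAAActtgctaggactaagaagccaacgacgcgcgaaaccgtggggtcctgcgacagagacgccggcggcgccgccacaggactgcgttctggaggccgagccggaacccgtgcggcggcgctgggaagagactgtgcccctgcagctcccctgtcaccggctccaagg

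In the last set the antisense and the sense gene start next to each other on opposite strands, and the bases between both starts are in capitals. TIAM1-AS1 (chr21:31558983-31559282, plus strand) starts 146 bases and URB1-AS1 (chr21:32392883-32393182, plus strand) 121 bases from the sense start, and both members of these pairs fell. TAF1A-AS1 (chr1:222589670-222589969, plus strand) starts 13 bases inside the sense gene, so the transcripts overlap at their first bases, and this pair moved in opposite directions.
TIAM1-AS1: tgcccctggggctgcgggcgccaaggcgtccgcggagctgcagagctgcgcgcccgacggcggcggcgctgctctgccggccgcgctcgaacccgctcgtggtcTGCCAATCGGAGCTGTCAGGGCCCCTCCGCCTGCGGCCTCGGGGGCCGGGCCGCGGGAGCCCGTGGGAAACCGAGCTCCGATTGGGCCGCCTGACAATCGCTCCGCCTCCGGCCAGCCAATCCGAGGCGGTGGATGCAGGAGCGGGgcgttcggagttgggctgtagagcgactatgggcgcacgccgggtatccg
URB1-AS1: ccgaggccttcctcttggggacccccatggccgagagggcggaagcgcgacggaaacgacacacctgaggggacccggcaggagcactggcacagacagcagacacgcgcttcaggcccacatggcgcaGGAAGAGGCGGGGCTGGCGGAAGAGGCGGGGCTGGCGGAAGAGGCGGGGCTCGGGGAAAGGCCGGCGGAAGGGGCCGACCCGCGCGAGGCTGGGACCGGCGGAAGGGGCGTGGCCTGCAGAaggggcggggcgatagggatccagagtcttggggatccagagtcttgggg
TAF1A-AS1: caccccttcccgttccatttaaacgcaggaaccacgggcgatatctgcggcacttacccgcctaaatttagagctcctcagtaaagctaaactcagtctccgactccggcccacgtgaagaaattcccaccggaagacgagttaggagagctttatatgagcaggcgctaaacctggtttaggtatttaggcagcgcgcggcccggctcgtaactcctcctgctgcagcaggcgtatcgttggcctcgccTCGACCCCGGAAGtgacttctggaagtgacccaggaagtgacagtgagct

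The first question was how many antisense transcripts gave a signal above background. Background was taken from 84 rows of olfactory receptor genes, which are read mainly in the nose, as their 95th percentile on each array. By this measure 95 of 639 antisense transcripts (14.9%) lay above background on all 3 lipofectamine arrays and 114 (17.8%) on all 3 siFGFR3 arrays. In all, 120 (18.8%) were above it in at least 1 group, against 56.0% of all rows, and 89 were above it in both. Most antisense rows therefore read at a level that the olfactory receptor rows also reach. The background level was itself lower in siFGFR3 cells, 4.79 to 4.89 against 5.05 to 5.15. With 1 common level of 4.98 for all arrays, 112 transcripts were above it in lipofectamine and 106 in siFGFR3 cells, so the order of the groups depends on this choice.

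The brightest antisense row was FGD5-AS1, a transcript widely expressed in human cells. It read 10.33, 10.32 and 10.32 on the lipofectamine arrays and 10.46, 10.40 and 10.26 with siFGFR3#35, #36 and #3. The groups overlapped, and the change of 0.05 (SE 0.06, adjusted p = 0.524) did not pass the test. The next were EPB41L4A-AS1, OTUD6B-AS1, THAP9-AS1 and KRT10-AS1, with lipofectamine values between 7.77 and 8.46. Of these 5, OTUD6B-AS1 alone passed, at 8.32, 8.27 and 8.32 against 8.11, 7.85 and 8.08. Its change was −0.29 (SE 0.08, adjusted p = 0.032), and the adjusted p was 0.107, 0.0845 or 0.11 without lipofectamine replicate 1, 2 or 3. OTUD6B-AS1 changed by −0.0571 (adjusted p = 0.726) when arrays were centred on the olfactory receptor rows, a scaling described below. Under that scaling FGD5-AS1 (0.28, adjusted p = 0.0264) and EPB41L4A-AS1 (0.41, adjusted p = 0.0344) passed as higher. EPB41L4A-AS1 also did so without siFGFR3#36 (adjusted p = 0.0133).

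The second question was which antisense transcripts differed between siFGFR3 and lipofectamine cells. A transcript is called when limma's adjusted p over all 19361 rows is under 0.05. Of 639 antisense transcripts, 29 (4.54%) were higher and 75 (11.7%) lower, and 535 were not called. Over all rows 14.2% were higher and 19.8% lower. Among all 639, 455 lay lower by value and 184 higher, with a median change of −0.0974 against −0.0772 over all rows. Lipofectamine and siFGFR3 values were fully apart for 223 antisense transcripts (34.9%), and for 52.9% of all rows. Called differences of at least 2-fold were found for 8 antisense transcripts, 6 of them above background, and for 455 of all 19361 rows.

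The calls are given by level next, and the plot of change against level shows them. Of the 120 transcripts above background, 19 (15.8%) were higher and 21 (17.5%) lower. Of all rows above background 22.8% were higher and 22.9% lower. Being above background in only 1 group favours transcripts that differ, so these counts are a description. Of the 519 transcripts not above background, 10 were higher and 54 lower, and over all such rows 3.33% were higher and 15.8% lower. The olfactory receptor rows moved the same way: none of 84 was called higher and 15 (17.9%) lower, and 77 of 84 lay lower by value, with a median of −0.2066. A fall of a dim antisense row was thus measured beside a fall of the rows used as background, whose part in the result was not tested.

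**Figure D1:**
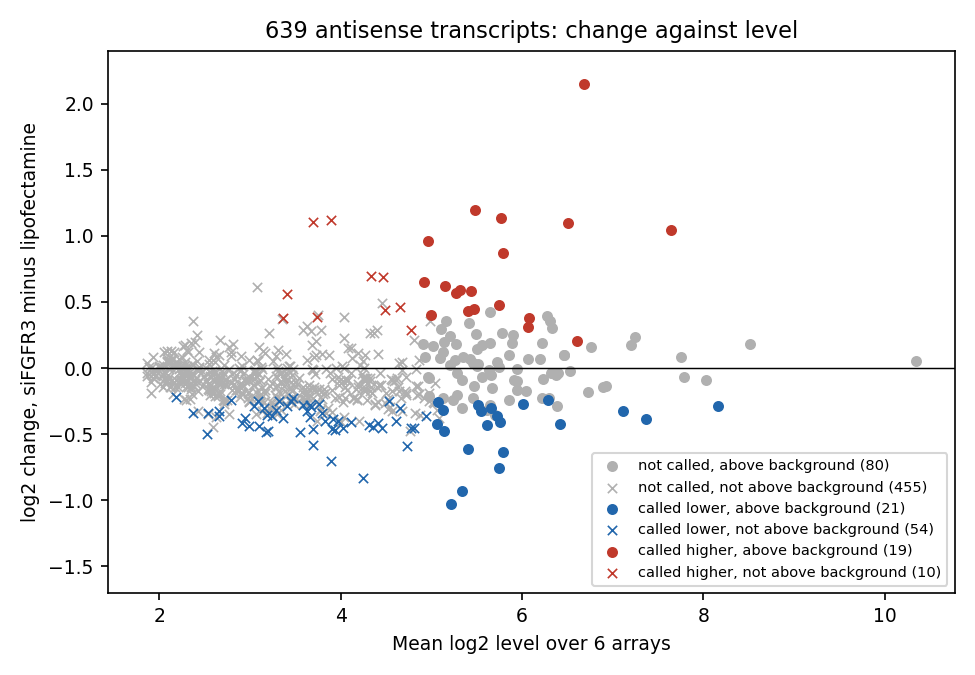
Each point is 1 of 639 antisense transcripts. The x axis is the mean log2 level over 6 arrays and the y axis the log2 change, siFGFR3 minus lipofectamine; circles lie above background in at least 1 group, crosses in neither, and colours give the limma call. The 54 called lower but not above background lie below 0, with ZEB1-AS1 at −0.70 among them, and GPC1-AS1 stands highest at 2.15.

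The split between higher and lower depended on how arrays were scaled, as the bar plot of calls by scaling shows. With each array centred on its median, 24 antisense transcripts were higher and 157 lower, where 12.1% and 28.9% of all rows were. With quantile normalization they were 36 and 43, against 14.0% and 15.7% of all rows. Centring each array on its olfactory receptor rows, a scaling chosen after the data were seen, gave 98 higher and 6 lower, against 29.4% and 5.16% of all rows. That scaling raised the median change of all rows by 0.2298, to 0.1526, and the median of the antisense transcripts to 0.1324. Under it all 29 rises remained called, and 6 of the 75 falls did. Of the 40 called transcripts above background, all 19 rises and 4 of the 21 falls remained called. None of these 40 changed sign, while 2 of the falls not above background did. With arrays centred on their median 24 of the 29 rises and all 75 falls remained called, and with quantile normalization 26 and 35.

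**Figure D2:**
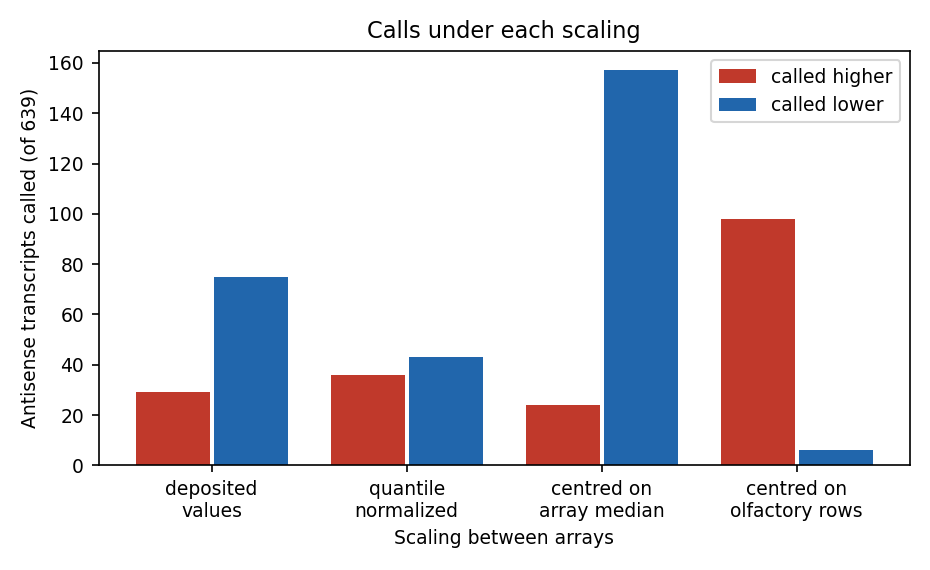
Bars count the antisense transcripts (of 639) called higher (red) or lower (blue) by limma when the deposited values are used as they are or scaled again in 3 ways. The pair of bars runs from 24 higher and 157 lower with arrays centred on their median to 98 higher and 6 lower with arrays centred on the olfactory receptor rows.

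GPC1-AS1 changed most. Its sense gene encodes glypican 1, a cell-surface heparan sulfate proteoglycan that binds growth factors. GPC1-AS1 read 5.55, 5.72 and 5.55 on the lipofectamine arrays and 8.16, 7.54 and 7.56 with siFGFR3#35, #36 and #3. Every siFGFR3 array lay far above every control. The change was 2.15 (SE 0.17, adjusted p = 0.000421), which is 4.43-fold. GPC1 was at 8.23 ± 0.07 in lipofectamine and 8.0 ± 0.35 in siFGFR3 cells (SD, n = 3), a change of −0.23 (SE 0.16, adjusted p = 0.289) that did not pass. The antisense start lies 21037 bases downstream of the GPC1 start, within the gene's span.

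4 further rises above background were at least 2-fold. RAB11B-AS1, opposite a small GTPase of recycling endosomes, read 4.85, 4.86 and 4.95 in lipofectamine cells and 6.45, 5.78 and 6.01 with siFGFR3#35, #36 and #3. ARHGEF26-AS1 read 5.34, 5.19 and 5.08 against 6.53, 6.02 and 6.48. The groups were well apart in both, with siFGFR3#35 highest and siFGFR3#36 lowest. The lipofectamine values of RAB11B-AS1, and the 5.08 of ARHGEF26-AS1, lay below the background level of their array (5.05 to 5.15). Both rows thus counted as above background through siFGFR3 cells alone, the group in which they are high. The changes were 1.19 (SE 0.16, adjusted p = 0.0022) and 1.14 (SE 0.15, adjusted p = 0.0018). KLRK1-AS1, named after the NKG2D receptor gene of natural killer cells, read 7.11, 7.09 and 7.14 against 8.45, 7.64 and 8.39. It rose by 1.04 (SE 0.20, adjusted p = 0.00734), and KLRK1 had no row. Here too siFGFR3#36 gave the smallest difference.

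PSMB8-AS1 starts 39 bases from PSMB8, which encodes an immunoproteasome subunit induced by interferon. It read 5.85, 6.0 and 6.02 on the lipofectamine arrays and 7.30, 7.27 and 6.59 with siFGFR3#35, #36 and #3. It rose by 1.10 (SE 0.18, adjusted p = 0.00463), with no overlap and the smallest difference with siFGFR3#3. PSMB8 rose with it, by 0.53 (SE 0.07, adjusted p = 0.00203). TFAP2A-AS1 lies beside the gene of transcription factor AP-2 alpha. It read 4.51, 4.46 and 4.49 against 5.85, 5.41 and 5.08, a rise of 0.96 (SE 0.18, adjusted p = 0.00653). Its lipofectamine values were below background and its siFGFR3 values above it. TFAP2A rose by 0.58 (SE 0.15, adjusted p = 0.0234).

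PAXIP1-AS2, named after a DNA damage response protein, rose by 0.87 (SE 0.09, adjusted p = 0.00102), from 5.45, 5.37 and 5.25 to 6.36, 6.13 and 6.19. HOXA-AS2, a transcript of the HOXA cluster of developmental transcription factors, rose by 0.59 (SE 0.09, adjusted p = 0.00299). Its lipofectamine values of 5.05, 5.0 and 5.02 were just below background, and its siFGFR3 values of 5.77, 5.54 and 5.53 above it. ANXA2R-AS1 (0.65, SE 0.16, adjusted p = 0.0218) and ITGB8-AS1 (0.62, SE 0.17, adjusted p = 0.0291), named after an integrin subunit gene, complete the 10 largest rises above background. Both depended on single arrays. For ANXA2R-AS1 the adjusted p was 0.0601 without lipofectamine replicate 1 and 0.0571 without siFGFR3#35. For ITGB8-AS1 it was 0.0847, 0.0762 or 0.0912 without lipofectamine replicate 1, 2 or 3, and 0.0701 or 0.0667 without siFGFR3#35 or siFGFR3#3. The other 8 stayed called whichever array was left out, with adjusted p-values of at most 0.0344.

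**Figure D3:**
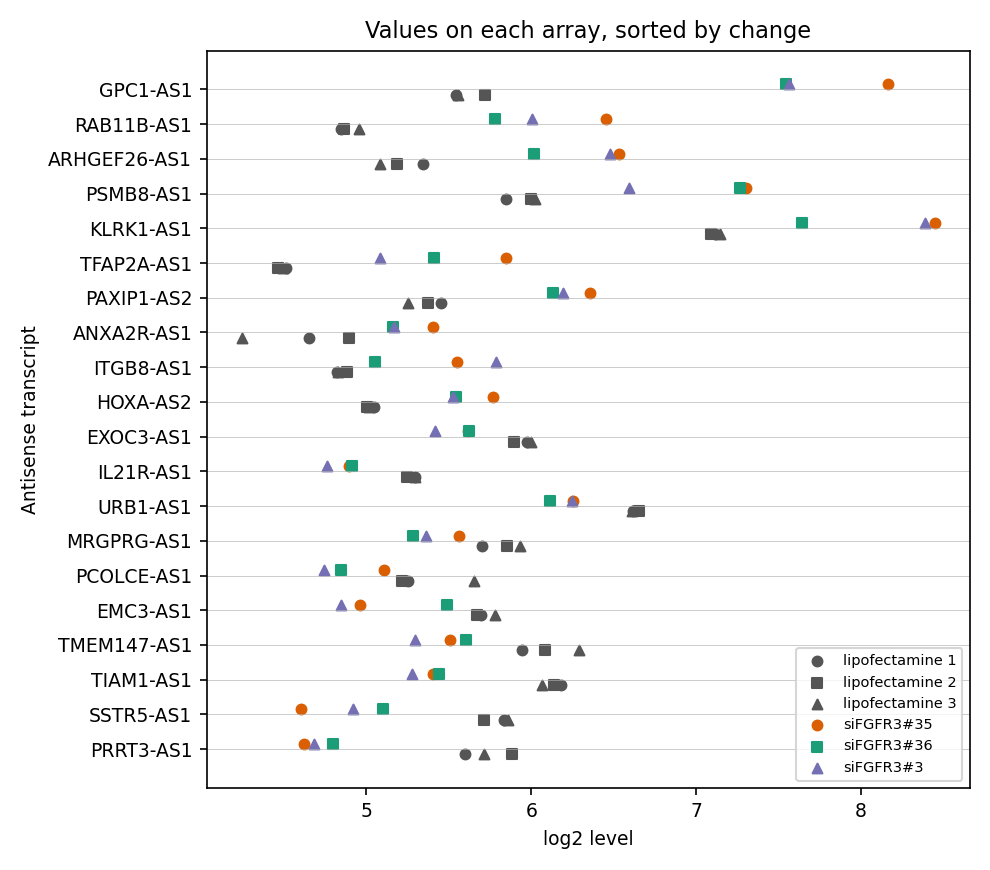
The x axis is the log2 level of each antisense transcript on each array, for the 10 largest rises (top) and the 10 largest falls (bottom) above background. Grey symbols are the 3 lipofectamine arrays and coloured symbols the 3 siRNAs against FGFR3; in each of the 20 transcripts all coloured symbols lie on one side of all grey ones.

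The largest fall above background was in PRRT3-AS1, which read 5.60, 5.88 and 5.71 on the lipofectamine arrays and 4.62, 4.80 and 4.68 with siFGFR3#35, #36 and #3. It fell by 1.03 (SE 0.10, adjusted p = 0.000732) to a level not above background. PRRT3 did not pass (0.08, SE 0.13, adjusted p = 0.627). SSTR5-AS1, beside a somatostatin receptor gene, read 5.84, 5.72 and 5.86 against 4.60, 5.10 and 4.92. It fell by 0.93 (SE 0.13, adjusted p = 0.00241), and 2 of its 3 siFGFR3 arrays still lay above the background level of their own array.

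In these and the next pair of transcripts the groups were apart on every array. TIAM1-AS1, beside the gene of an activator of the GTPase Rac, fell by 0.76 (SE 0.08, adjusted p = 0.000971), from 6.18, 6.14 and 6.07 to 5.40, 5.44 and 5.28. TMEM147-AS1, named after a membrane protein of the endoplasmic reticulum, fell by 0.64 (SE 0.12, adjusted p = 0.0069), from 5.95, 6.08 and 6.29 to 5.51, 5.60 and 5.30. These 4 were the falls above background that stayed called when arrays were centred on the olfactory receptor rows, with adjusted p-values of 0.00109 to 0.0248.

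The remaining 6 of the 10 largest falls were EMC3-AS1, PCOLCE-AS1, MRGPRG-AS1, URB1-AS1, IL21R-AS1 and EXOC3-AS1, with changes of −0.61 to −0.41. URB1-AS1, beside a ribosome biogenesis gene, read 6.62, 6.66 and 6.61 against 6.26, 6.11 and 6.24, a change of −0.42 (SE 0.07, adjusted p = 0.00485). With arrays centred on the olfactory receptor rows its adjusted p was 0.184, and those of the other 5 lay between 0.0568 and 0.25. URB1-AS1 and IL21R-AS1 stayed called whichever array was left out. EMC3-AS1 did not without lipofectamine replicate 1, 2 or 3 (adjusted p = 0.0697, 0.0657 and 0.0865), siFGFR3#35 (0.0608) or siFGFR3#3 (0.065). PCOLCE-AS1 did not without lipofectamine replicate 1, 2 or 3 (0.0703, 0.0601 and 0.112), siFGFR3#36 (0.0718) or siFGFR3#3 (0.113). MRGPRG-AS1 was lost without lipofectamine replicate 2 or 3 (0.0646 and 0.0714), and EXOC3-AS1 without lipofectamine replicate 3 (0.0516).

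Just inside the threshold were TTLL1-AS1 (adjusted p = 0.0499) and TAF1A-AS1 (0.0481), with changes of −0.41 and 0.40. Just outside were MYLK-AS1 (0.0506) and LHFPL3-AS2 (0.0509), with changes of −0.24 and −0.31.

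The siRNAs were then compared one at a time with the 3 lipofectamine arrays (limma with 4 levels, where the lone array of an siRNA is taken to vary as the controls do). With siFGFR3#35, 64 antisense transcripts were higher and 53 lower, against 21.5% and 22.2% of all rows. With siFGFR3#36 they were 23 and 64, against 15.2% and 19.1%, and with siFGFR3#3 45 and 96, against 20.9% and 23.3%. The siRNAs share the controls. All 104 transcripts called in the comparison of groups differed in the same direction with every siRNA, as their separation from the controls requires. Of the 40 of them above background, 20 were called the same way with each siRNA taken alone. The share of all rows called so was not counted. The 40 include rows above background only in the group in which they are high.

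Interferon-stimulated genes were listed after the ISRE matches had been seen, and 11 of 12 had a row. Of these 6 were called higher and none lower (14.2% and 19.8% of all rows), with a median change of 1.76. IFIT2, one of those called, was higher by 2.45, 3.58 and 1.42 with siFGFR3#35, #36 and #3, and RSAD2, also called, by 2.70, 6.08 and 1.38. The 5 not called were IFIT1, ISG15, MX1, OAS1 and IFIH1. Of these, OAS1 changed by −0.47, 1.20 and −0.28 with siFGFR3#35, #36 and #3, and ISG15 by 0.40, 2.00 and −0.01. Among the 5 antisense transcripts with the ISRE letters that were called higher, siFGFR3#36 gave the highest change in none. PSMB8-AS1 was higher by 1.35, 1.31 and 0.64, TFAP2A-AS1 by 1.36, 0.92 and 0.59, and HOXA-AS2 by 0.74, 0.52 and 0.51. FAM13A-AS1 was higher by 0.69, 0.37 and 0.64 and ANXA2R-AS1 by 0.81, 0.56 and 0.57. The part of the interferon genes in these rises was not tested. The ISRE letters stood in 5 of 21 antisense promoters of higher transcripts (23.8%), in 2 of 56 of lower ones (3.57%) and in 11 of 407 of uncalled ones (2.7%). Among 80 promoters of antisense transcripts above background in lipofectamine cells, 1 held them (1.25%), that of PSMB8-AS1. The other 4 with a rise were above background in siFGFR3 cells alone, the group in which they are high. Of 10 promoters of the listed interferon-stimulated genes, 6 did. The ISRE was singled out of 6 motifs after these counts were seen. The other motifs were counted in the same 21 higher, 56 lower and 407 uncalled. The ETS letters stood in 3, 4 and 34, against 10.7% of all promoters. The AP-1 letters stood in 1, 1 and 38 (7.76% of all promoters) and the E-box in 1, 9 and 28 (7.43%). The GC box stood in 13, 19 and 171 (44.6%) and the CCAAT box in 7, 15 and 131 (35.7%).

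The third question was how an antisense transcript moved relative to its sense gene. Probe sequences and strands were not at hand. It could therefore not be checked which strand an antisense row reads, or whether its probes also match the sense transcript. A sense row existed for 586 of the 639, and the other 53 had none. The changes had the same sign in 328 pairs (56.0%) and the opposite sign in 258. Both rows were called in 40 pairs, of which 10 were both higher, 19 both lower and 11 opposite. In 55 pairs the antisense transcript alone was called and in 181 the sense gene alone. Across the 586 pairs the changes correlated at a Pearson coefficient of 0.096 and a Spearman coefficient of 0.081, a description in which all points share the same 6 arrays. Among the 88 pairs with both rows above background, 38 had the same sign and 50 the opposite sign.

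The pairs were then split by the position of the antisense start. RefSeq placed both starts within 1000 bases of each other, on opposite strands, in 174 pairs, and the antisense start further downstream of the sense start in 201. For 193 pairs the table used held no start of one or both genes, 17 antisense starts lay upstream and 1 pair lay on the same strand. Among pairs with neighbouring starts and both rows above background, 25 of 45 moved with the same sign, and the changes correlated at r = 0.408 (Spearman coefficient 0.474). Among those with a downstream antisense start, 5 of 27 moved with the same sign and 22 with opposite signs, at r = −0.313 (Spearman coefficient −0.446). In 24 of the 27 the spans of the genes overlap, and 19 of these moved with opposite signs. This limit on background draws on the changes it is used to compare, since a row may pass it in 1 group alone. Of the 120 antisense transcripts above background, 25 were so in siFGFR3 cells alone and 6 in lipofectamine cells alone. Without the limit on background the counts were 99 of 174 (r = 0.255) and 98 of 201 (r = −0.086).

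These counts are a description across pairs, and the difference between the positions was not tested. Under the other scalings and with each array left out in turn, 24 to 38 of the 45 pairs with neighbouring starts had the same sign, and 4 to 8 of the 27 with a downstream start. The correlations lay between 0.362 and 0.44 and between −0.357 and −0.248. Centring the arrays shifts every change by the same amount and so could not alter a correlation. The count of 38 came from centring on the olfactory receptor rows.

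**Figure D4:**
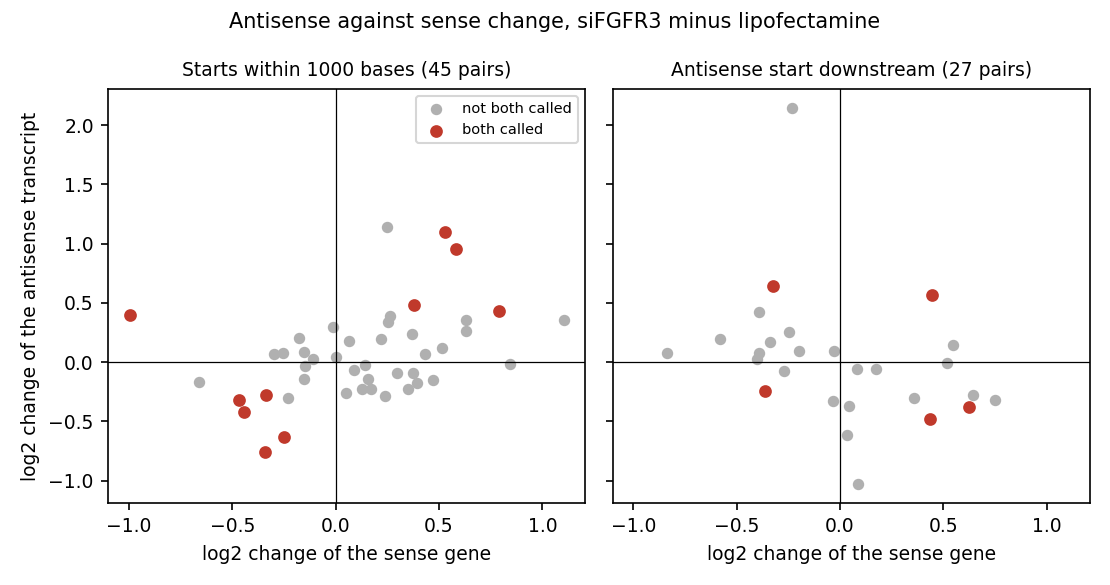
Each point is a pair with both rows above background in at least 1 group: the x axis is the log2 change of the sense gene and the y axis that of the antisense transcript, siFGFR3 minus lipofectamine, with red where both were called. Of the 45 pairs with starts within 1000 bases (left) 25 lie in the quadrants of equal sign, and of the 27 with a downstream antisense start (right) 5 do. Being above background in only 1 group favours rows that differ, so the choice of pairs draws on the plotted changes.

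Pairs with neighbouring starts in which both rows were called moved together in 15 of 17 cases. Besides PSMB8 and TFAP2A, GATA3-AS1 and GATA3, a transcription factor of the urothelial lineage, both rose. GATA3-AS1 read 5.28, 5.14 and 5.16 on the lipofectamine arrays and 5.65, 5.47 and 5.74 with siFGFR3#35, #36 and #3. Its rise of 0.43 (SE 0.09, adjusted p = 0.0131) went with a rise of GATA3 of 0.79 (SE 0.08, adjusted p = 0.000834). Without lipofectamine replicate 2 or 3 the adjusted p of GATA3-AS1 was 0.0571 or 0.0559. RAB11B rose by 0.31 (SE 0.09, adjusted p = 0.0291) beside RAB11B-AS1, but its row was not above background in either group.

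The neighbouring pairs that fell together included TIAM1 (−0.34, SE 0.09, adjusted p = 0.0293), TMEM147 (−0.25, SE 0.06, adjusted p = 0.024) and URB1 (−0.44, SE 0.10, adjusted p = 0.0123). SLC25A5-AS1 and DEPDC1-AS1, both not above background, fell by 0.46 and 0.44 beside SLC25A5, a mitochondrial ADP/ATP carrier (−0.61), and DEPDC1, a gene of dividing cells (−0.52). For SLC25A5-AS1 the adjusted p was 0.079 or 0.0888 without lipofectamine replicate 1 or 2, and 0.0755, 0.0526 or 0.0639 without siFGFR3#35, #36 or #3. For DEPDC1-AS1 it was 0.114 or 0.115 without lipofectamine replicate 1 or 2, and 0.0697 or 0.105 without siFGFR3#35 or siFGFR3#3. Both calls were also lost with quantile normalization (0.124 and 0.107) and with arrays centred on the olfactory receptor rows (0.228 and 0.257).

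The neighbouring pairs of opposite sign were TAF1A-AS1 and VPS13A-AS1. TAF1A, a subunit of the factor that places RNA polymerase I on ribosomal DNA, fell from 7.87 ± 0.11 to 6.87 ± 0.12 (SD, n = 3), by 0.99 (SE 0.09, adjusted p = 0.000661). TAF1A-AS1 read 4.75, 4.77 and 4.85 against 5.49, 5.09 and 5.01, a rise of 0.40 (SE 0.13, adjusted p = 0.0481). Without lipofectamine replicate 1, 2 or 3 or siFGFR3#35 its adjusted p was 0.129, 0.124, 0.104 or 0.0576, and with arrays centred on their median 0.0607. VPS13A-AS1, not above background, changed by −0.45 (SE 0.13, adjusted p = 0.0329) and VPS13A, a lipid transfer protein, by 0.48 (SE 0.15, adjusted p = 0.0438). VPS13A-AS1 was not called without lipofectamine replicate 2 or 3 (0.0924 and 0.113), siFGFR3#35 (0.0564) or siFGFR3#3 (0.0757), nor with quantile normalization (0.0571) or arrays centred on the olfactory receptor rows (0.197).

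Among pairs with a downstream antisense start, 11 had both rows called, 6 with the same and 5 with opposite signs. HLA-F-AS1 read 7.55, 7.46 and 7.67 on the lipofectamine arrays and 7.08, 7.11 and 7.34 with siFGFR3#35, #36 and #3, and did not overlap between groups. It changed by −0.38 (SE 0.09, adjusted p = 0.0199), while HLA-F, a non-classical MHC class I gene, rose by 0.62 (SE 0.09, adjusted p = 0.00281). Without lipofectamine replicate 1 or 3 the adjusted p of HLA-F-AS1 was 0.0685 or 0.0845, and with arrays centred on the olfactory receptor rows 0.303. ANXA2R fell by 0.32 (SE 0.07, adjusted p = 0.0145) beside the rise of ANXA2R-AS1. PCOLCE, an enhancer of procollagen processing, rose by 0.43 (SE 0.13, adjusted p = 0.0353) beside the fall of PCOLCE-AS1.

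The last opposite pairs of this kind had antisense rows not above background. PLCE1, a phospholipase C of Ras signalling, rose by 1.05 (SE 0.07, adjusted p = 0.000322), with PLCE1-AS2 at −0.34 (adjusted p = 0.0181). TTLL1, an enzyme that modifies tubulin, rose by 0.93 (SE 0.11, adjusted p = 0.00145), with TTLL1-AS1 at −0.41. PLCE1-AS2 was not called without lipofectamine replicate 1 or 3 (0.0532 and 0.0609) or siFGFR3#3 (0.0545). TTLL1-AS1 was not called without lipofectamine replicate 1, 2 or 3 (0.0764, 0.129 and 0.149), siFGFR3#35 (0.0758) or siFGFR3#3 (0.0994), nor with quantile normalization (0.121). With arrays centred on the olfactory receptor rows the adjusted p was 0.335 for PLCE1-AS2 and 0.307 for TTLL1-AS1. FAM13A-AS1, whose start lies 113443 bases downstream, rose by 0.57 (SE 0.13, adjusted p = 0.0146) with FAM13A, which rose by 0.44 (SE 0.07, adjusted p = 0.00297). Its adjusted p was 0.0503 and 0.0542 without lipofectamine replicate 2 and 3.

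The pairs without a start in the table included SLCO4A1-AS1. SLCO4A1, an organic anion transporter, fell from 10.21 ± 0.04 to 7.41 ± 0.81 (SD, n = 3), by 2.80 (SE 0.34, adjusted p = 0.00155). SLCO4A1-AS1 read 4.96, 4.99 and 5.05 against 4.42, 4.61 and 4.62, a change of −0.45 (SE 0.09, adjusted p = 0.00744) in a row not above background in either group. Its adjusted p was 0.104 with arrays centred on the olfactory receptor rows. OTUD6B, a deubiquitinase, fell by 1.05 (SE 0.13, adjusted p = 0.00176) beside OTUD6B-AS1. USP30-AS1 and SLC44A3-AS1 were 0.70 and 0.44 higher with their sense genes, also below background. PAXIP1 fell by 0.29 (SE 0.06, adjusted p = 0.0117) against the rise of PAXIP1-AS2. CIRBP, a cold-inducible RNA-binding protein, rose by 0.51 (SE 0.12, adjusted p = 0.0156), with CIRBP-AS1, not above background, at −0.59 (SE 0.12, adjusted p = 0.0103).

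The weaker pairs of this kind had antisense rows not above background and lost a call when arrays were left out. PRR34-AS1 was 0.69 higher with PRR34 at −0.40, and its adjusted p was 0.0838, 0.0845 or 0.133 without lipofectamine replicate 1, 2 or 3. PSMG3-AS1 was 0.46 higher with PSMG3, a proteasome assembly factor, at −0.39. Its adjusted p was 0.119, 0.117 or 0.0749 without lipofectamine replicate 1, 2 or 3, 0.0831 or 0.113 without siFGFR3#36 or siFGFR3#3, and 0.0686 with arrays centred on their median. SUCLA2-AS1 changed by −0.48 and SUCLA2, a mitochondrial succinyl-CoA ligase subunit, by −0.43. SUCLA2-AS1 was not called without lipofectamine replicate 2 or 3 (0.0559 and 0.0565) or siFGFR3#3 (0.0704), nor with quantile normalization (0.0669) or arrays centred on the olfactory receptor rows (0.173).

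A list of 40 antisense RNAs with a described role, mostly in cancer, matched 23 members. Of these 4 were higher and 3 lower, with a median change of −0.115. Over all rows 14.2% were higher and 19.8% lower, and of all 639 members 4.54% and 11.7% were. The higher ones were PSMB8-AS1, HOXA-AS2, GATA3-AS1 and GAS5-AS1. Above background in at least 1 group were 7 of the 23, against 18.8% of all 639. GAS5-AS1, not above background, was higher by 0.38 (SE 0.11, adjusted p = 0.0388). That call was lost without any 1 lipofectamine array (0.104, 0.123 and 0.0545), siFGFR3#35 (0.085) or siFGFR3#3 (0.105), and its adjusted p was 0.0527 with arrays centred on their median.

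ZEB1-AS1, FOXP4-AS1 and AFAP1-AS1 were lower, by 0.70, 0.50 and 0.41 by value, and all were below background. ZEB1-AS1 read 4.22, 4.40 and 4.12 against 3.79, 3.77 and 3.07, with siFGFR3#3 lowest (SE 0.19, adjusted p = 0.029). Without lipofectamine replicate 1, 2 or 3 its adjusted p was 0.0767, 0.0949 or 0.0673, and for FOXP4-AS1 it was 0.0503 or 0.0736 without lipofectamine replicate 1 or 3. None of these 3 passed with arrays centred on the olfactory receptor rows (0.0766, 0.0994 and 0.122), and ZEB1-AS1 did not with quantile normalization (0.0595).

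Among the 16 that did not pass were TMPO-AS1 (−0.17, adjusted p = 0.236), MAPKAPK5-AS1 (−0.15, adjusted p = 0.228) and NNT-AS1 (0.24, adjusted p = 0.258), all above background. NNT-AS1 read 7.14, 6.99 and 7.25 against 7.55, 7.01 and 7.54, so that the siFGFR3#36 array lay among the controls, and without it the adjusted p was 0.00846. CDKN2B-AS1, which lies at a tumour suppressor locus, read 2.82 to 2.98 in lipofectamine and 2.69 to 2.81 in siFGFR3 cells, with no signal above background in either group.

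Genes that make or clear antisense RNA were counted from lists. Of 12 RNA exosome genes with a row, none was higher and 9 were lower, with a median change of −0.514 (14.2% and 19.8% of all rows). EXOSC8, a subunit of the exosome ring, was at 9.04 ± 0.02 in lipofectamine and 8.13 ± 0.05 in siFGFR3 cells (SD, n = 3), a fall of 0.91 (SE 0.06, adjusted p = 0.000255). EXOSC2, a subunit of its RNA-binding cap, fell by 0.69 (SE 0.09, adjusted p = 0.00195). The exonuclease DIS3 (0.10, adjusted p = 0.485), EXOSC10 (−0.05, adjusted p = 0.645) and EXOSC1 (−0.19, adjusted p = 0.172) did not pass.

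The same shares of all rows, 14.2% and 19.8%, stand beside the lists that follow. Of 11 exosome adaptor genes 1 was higher and 4 lower. The helicase MTREX fell by 0.37 (SE 0.06, adjusted p = 0.00426) and ZFC3H1 rose by 0.31 (SE 0.08, adjusted p = 0.0194). None of 15 Integrator and none of 15 cleavage and polyadenylation genes was higher, and 3 of each list were lower. Of 11 genes of RNA decay and nonsense-mediated decay 2 were higher and 1, DCP1A, lower. The cytoplasmic exonuclease XRN1 rose by 0.69 (SE 0.07, adjusted p = 0.000936) and the nuclear exonuclease XRN2 by 0.19 (SE 0.06, adjusted p = 0.0453). Of 10 genes of RNA editing and RNA interference 3 were higher (ADAR, DICER1 and AGO4) and 1 lower (AGO2). AGO4 rose from below background to 5.17 ± 0.15 (SD, n = 3), by 1.02 (SE 0.11, adjusted p = 0.00108). The part of these genes in the antisense changes was not tested.

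Other noncoding classes, taken by symbol, gave these counts in the same fit, in which 14.2% of all rows were higher and 19.8% lower. Of 655 LINC rows 13 were higher and 99 lower, and 47 lay above background in at least 1 group. Of 138 divergent transcripts (symbols ending in -DT) 14 were higher and 16 lower, with 39 above background. Of 22 SNHG rows, host genes of small nucleolar RNAs, none was higher and 13 were lower, with 17 above background.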

How the data were processed

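The deposited values are log2 levels. Per the submitters' processing notes, the authors made them with RMA (affy); the versions are not given in the sources used here. RMA subtracts background, equalises the arrays and summarises each row, so a shift shared by most genes is reduced. Arrays have no read depth, and their number, 3 in each of 2 groups, limits the precision. Of 19361 rows, 18669 were named by the probe annotation, the RefSeq table changed no symbol, and 692 stayed unnamed. 

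limma 3.58.1 in R 4.3.3 (lmFit, eBayes with a variance trend) was fitted to all rows, with Benjamini-Hochberg adjustment over all rows and a two-sided threshold of 0.05. All rows entered so that every antisense transcript has a value, and leaving out the dimmest 30% was an alternative. With 3 arrays against 3, an exact permutation test cannot go below 0.1. The script was tested on simulated data. Errors are SD for groups and SE for changes.

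Genes named are the 10 largest rises and falls above background, the 5 highest levels, pairs with both rows called (opposite pairs and 10 of the same sign, ranked by the smaller change), a list of described antisense RNAs, and 2 transcripts on either side of the threshold. The members and lists were chosen with earlier results of these data known. Since the labels name no separate cultures, the spread among the lipofectamine arrays may be technical. The spread among the siFGFR3 arrays includes differences between the siRNAs. Alternatives were other scalings, filters, background levels and leaving out each array.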

Additional observations from a re-analysis of the deposited data

How the results depend on the processing

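No paired analysis was possible because the groups share at most 1 replicate number, and the siRNA numbers name siRNAs. At an adjusted p under 0.01, 13 antisense transcripts were higher and 10 lower, and the share of all rows at that threshold was not counted. Without the dimmest 30% of rows, 255 antisense transcripts remained, of which 48 were lower, against 24.6% of all rows kept. In that setting 88 of 189 pairs moved in the same direction, against 328 of 586 with all rows. The cause of this difference was not tested. With arrays centred on their median 157 were lower, the median change was −0.1632 and 49 pairs with both rows called moved the same way. With quantile normalization 43 were lower and the median change was −0.0236. With arrays centred on the olfactory receptor rows, added after seeing the data, 98 were higher and 6 lower, the median change was 0.1324, and FGFR3 changed by −0.8137 (adjusted p = 0.0522). With only pairs above background, 38 of 88 moved together, and 12 of 17 with both rows called. The number above background in lipofectamine was 169 with the 90th percentile of the olfactory receptor rows, 16 with the 99th (16 in siFGFR3) and 255 with the 30th percentile of all rows (255 in siFGFR3). Leaving out each array in turn gave 15 to 51 higher and 26 to 69 lower transcripts (7.78% to 18.6% and 9.9% to 21.7% of all rows), a median change of −0.116 to −0.0883, 4 to 38 pairs with both rows called in the same direction, and an FGFR3 change of −1.4238 to −0.7721. The lowest counts came without a lipofectamine array, and without siFGFR3#36 51 were higher. The cause was not tested. Of 729 values of named transcripts under alternatives, 603 stayed on the same side of the threshold, 580 of them with the same sign, 103 lost a call and 23 gained one. Signs turned in 23 values of 13 transcripts, none of them called. Naming 12 further rows by gene ID added no call.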
